A study of Mus musculus with 97 samples.

Results

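The comparison described here set ribosome-associated RNA of cerebellar microglia against RNA of the cerebellum around them, in mice of 9 months. It was made of the 2 libraries titled as control cerebellar microglia TRAP at 9 months and the 2 libraries of cerebellum tissue RNA, 4 of the 97 samples of the series. TRAP (translating ribosome affinity purification) captures ribosomes that carry a tagged ribosomal protein, together with the RNA bound to them, from the cells in which a Cre recombinase switched the tag on. The series asks how microglia differ between brain regions and what the Polycomb gene Eed does in them. All 4 libraries came from C57BL/6 mice with the genotype Cx3cr1CreErt2/+(Litt), Eef1a1LSL.eGFPL10a/+ and Eedfl/+. The Cre is driven by Cx3cr1, a gene of microglia that other macrophages also use, and acts after tamoxifen, which was given at 4 to 6 weeks of age. The controls thus carried 1 floxed copy of Eed, which the same Cre can remove. The protocol text describes both tissue libraries as the fraction that the capture left unbound, although the column of replicate 1 is named CB_IN and that of replicate 2 ctrl_UB_CB. The labels do not say whether the replicates came from separate animals, so p-values measure the spread between libraries only. That spread was estimated over 8 libraries, these 4 and 4 of striatal control TRAP and striatum tissue at 9 months.

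Microglia, the macrophages that live within brain tissue, survey the tissue through purinergic and chemokine receptors, take up dying cells and synapse fragments through phagocytic receptors and complement, and break them down in lysosomes. Cerebellar microglia are sparser than those of the forebrain and live among granule neurons, Purkinje cells and Bergmann glia, with other macrophages along the meninges and vessels.

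Values were deposited as RPKM, read counts scaled by gene length and library depth, and were compared as log2(RPKM + 1). Log2 changes below are TRAP minus tissue on that scale with the standard error of the fit, and understate the fold of low genes. Depth, in units of 1000000 reads, was 21.7 and 107 in the TRAP libraries and 51.6 and 59.5 in tissue. Between 12008 and 12304 genes reached 1 RPKM in each. Across the genes tested, the TRAP libraries correlated with r = 0.919 and the tissue libraries with r = 0.976, as a description over genes. The 15 mitochondrially encoded genes were listed at 0 in all 4 libraries, so a value of 0 in the table is reported as listed at 0. In bulk RNA, fewer cells of a type and less RNA per cell cannot be told apart.

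Of 14186 genes tested, 2110 were higher and 1791 lower in cerebellar TRAP (limma, adjusted p under 0.05), or 14.9% and 12.6% of all genes tested. The rises were larger than the falls: 712 genes rose by a log2 change of at least 2, and 80 fell by as much. Both TRAP libraries lay above both tissue libraries for 29.0% of genes and below both for 35.1%, and the median change of all genes was -0.09. Leaving out tissue replicate 1 gave 1257 higher and 571 lower, leaving out tissue replicate 2 gave 1123 and 585. A gene could pass the filter on low values through the TRAP libraries alone or through the tissue libraries alone. For 663 genes both TRAP libraries reached 1 RPKM and neither tissue library did. For 573 genes both tissue libraries reached it and neither TRAP library did.

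Leaving aside predicted genes, most of the largest rises belonged to myeloid genes. Fcer1g, the signalling chain of Fc receptors, had 1592 and 1163 RPKM in the TRAP libraries and 8.62 and 4.60 in tissue. Tyrobp, the adaptor that carries signals of Trem2, had 1837 and 1180 RPKM in TRAP and 13.5 and 6.74 in tissue. For both genes the TRAP libraries stood far above the tissue libraries, with no overlap. The log2 change was 7.54 ± 0.38 for Fcer1g (limma adjusted p = 2.31e-05) and 7.12 ± 0.45 for Tyrobp (adjusted p = 4.34e-05). Next came, among others, Ly86, a partner of a Toll-like receptor relative (7.16), C1qc and C1qb of the complement initiator C1q (6.87 and 6.48), the lysozyme Lyz2 (6.56), the actin-bundling protein Aif1 (6.54) and the immunoglobulin heavy chain gene Ighm (6.37). Bin2, Laptm5, Ctss and P2ry12 rose by 6.32, 6.04, 6.04 and 6.02. Bahcc1, a chromatin-associated protein, had 445 and 759 RPKM in TRAP and 2.98 and 2.96 in tissue (log2 change 7.20 ± 0.55, adjusted p = 8.62e-05). Tnrc18, a relative of Bahcc1, rose by 6.35 ± 0.37, from 2.20 and 2.14 to 223 and 298 RPKM. Replicate 2 of TRAP was the higher library for Bahcc1 and Tnrc18 and the lower one for the other 13 of the 15 largest rises. All 15 kept their call under each of the 14 alternative settings.

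**Figure D1:**
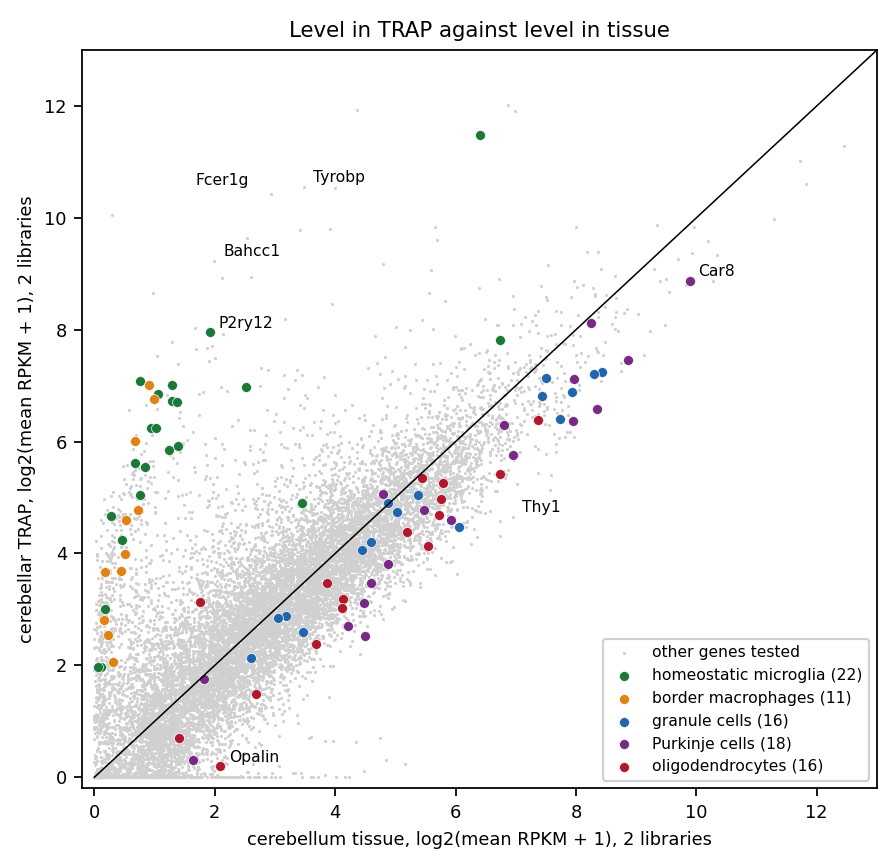
Mean level of each of the 14186 genes tested in cerebellum tissue (x axis) and in cerebellar TRAP (y axis), both as log2(mean RPKM + 1) over 2 libraries, with 5 marker lists in colour and the line of equal level. Genes of homeostatic microglia (22) and border macrophages (11) lie above the line, while most genes of granule cells, Purkinje cells and oligodendrocytes lie below it.

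Homeostatic microglia genes are those by which microglia of the healthy adult brain are recognised. All 22 listed genes were tested and all 22 rose, by 1.07 to 6.32 with a median of 4.64, against -0.09 for all genes. P2ry12, the receptor by which microglial processes sense released nucleotides, had 297 and 198 RPKM in TRAP and 2.99 and 2.54 in tissue (log2 change 6.02 ± 0.22, limma adjusted p = 1.32e-05). Tmem119, a microglial surface protein, had 131 and 77.8 RPKM against 1.97 and 0.908. Cx3cr1, the fractalkine receptor whose locus drives the Cre, had 78.0 and 35.0 RPKM in TRAP and 1.66 and 1.06 in tissue (4.51 ± 0.37, adjusted p = 0.000121). The TRAP libraries lay above the tissue libraries for each of these genes, and replicate 1 was the higher TRAP library. P2ry13, Siglech, Csf1r, the receptor on whose signal microglia depend, and the transcription factor Sall1 rose by 5.72, 5.31, 5.34 and 4.56. The smallest rises of the list were in Sparc and Golm1, which were already high in tissue. Sparc, a secreted matrix protein, had 270 and 180 RPKM in TRAP and 89.5 and 122 in tissue (1.07 ± 0.26, limma adjusted p = 0.0177). Its call was lost under 5 of the 14 alternative settings, among them those without TRAP replicate 1 or tissue replicate 1. Golm1 had 37.0 and 21.1 against 8.26 and 11.6 RPKM (1.42 ± 0.28, limma adjusted p = 0.00821). That call was lost under 2 of the 14, among them the setting without tissue replicate 1.

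Of 21 genes of Fc receptors and their ITAM signalling, by which macrophages read antibody-coated and lipid-coated targets, 20 were tested and 19 rose, with a median of 3.41. Cd33, a sialic-acid receptor, had 132 and 93.3 RPKM in TRAP and 1.85 and 0.765 in tissue, and Fcgr3 199 and 134 against 1.87 and 1.37. The adaptor Lcp2 rose by 4.85. Sirpa, the receptor for the CD47 signal that restrains engulfment, did not pass the test, with 63.0 and 45.0 RPKM in TRAP and 31.8 and 38.7 in tissue (0.59 ± 0.21, limma adjusted p = 0.0691).

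Complement genes were divided by role. The 3 chains of C1q rose: C1qb from 14.5 and 4.85 RPKM in tissue to 1106 and 651 in TRAP, C1qc from 5.01 and 1.69 to 596 and 368, and C1qa from 3.54 and 1.15 to 108 and 120. The receptors C3ar1, C5ar1 and Gpr77 and both chains of complement receptor 3, Itgam and Itgb2, rose by 4.61, 4.03, 2.29, 4.64 and 4.22. Downstream components were low: C3, the central component, had 0.835 and 1.46 RPKM in TRAP and 0.384 and 0.105 in tissue, and C4b had 0.551 and 1.34 against 2.28 and 0.174, neither past the test. Cd59a, which blocks the membrane attack complex, fell by 1.30 on the log2 scale, from 12.4 and 16.6 to 4.59 and 6.00 RPKM, and did not pass without tissue replicate 2. In all, 9 of 16 listed genes rose and 1 fell, with 15 tested.

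All 22 transcription factors on the myeloid list were tested and 20 rose, with a median of 2.80. Sfpi1, the gene of PU.1, which specifies macrophages and microglia, had 31.5 and 34.4 RPKM in TRAP and 0.633 and 0.131 in tissue (4.64 ± 0.31). Ikzf1, a zinc finger factor of blood cell lineages, had 72.5 and 64.6 RPKM against 0.923 and 0.293. Irf8, the interferon regulatory factor that microglia require, and Hhex, Irf5, Runx1 and Fli1 rose by 4.04, 4.80, 4.69, 3.85 and 4.33. Mef2a and Mef2c, which neurons also use, rose by 0.99 and 1.17. Batf3 split the TRAP libraries, at 14.3 and 0.576 RPKM, and did not pass the test, nor did Bhlhe40, with 49.1 and 26.0 RPKM in TRAP and 67.1 and 55.2 in tissue.

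PU.1 binds purine-rich sites with a GGAA core, and the 300-base promoter windows of RefSeq (GRCm38.p6, 250 bases before to 50 after each gene start) were searched on both strands for a single motif, GAGGAAGT. The GGAA core is shared with other ETS factors. The motif stood in the windows of 3.69% of all 27025 genes with a window and 3.53% of the 10442 tested genes with one. It was in 6.75% of 1616 genes higher in TRAP, 2.90% of 1206 lower and 2.95% of 7629 not called. Of the 100 largest rises, 73 had a window and 12 of those held the motif, and of the 15 largest named rises 2 of 11. Among the lists it was in 1 of 14 homeostatic genes, 3 of 16 Fc receptor and ITAM genes and 2 of 9 border macrophage genes, and in 0 of 17 myeloid transcription factors, 0 of 18 cytokine receptors and 0 of 4 class II genes. A match describes letters in a window, not a bound site. The 4 windows below were picked because they hold the motif, Ctss and C1qc of the 15 largest rises and Pf4 and F13a1 of the border macrophage list, with the motif in capitals, ACTTCCTC where it lies on the opposite strand. They are chr3:95526536-95526835 (plus strand) for Ctss, chr4:136892865-136893164 (minus) for C1qc, chr5:90772185-90772484 (plus) for Pf4 and chr13:37049164-37049463 (minus) for F13a1, each read 5′ to 3′ along its gene.
Ctss: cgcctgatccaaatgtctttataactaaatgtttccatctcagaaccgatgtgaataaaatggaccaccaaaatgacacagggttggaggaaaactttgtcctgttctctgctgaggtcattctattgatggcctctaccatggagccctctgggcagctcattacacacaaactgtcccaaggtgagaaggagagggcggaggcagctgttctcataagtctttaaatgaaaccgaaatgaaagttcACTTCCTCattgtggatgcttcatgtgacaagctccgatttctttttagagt
C1qc: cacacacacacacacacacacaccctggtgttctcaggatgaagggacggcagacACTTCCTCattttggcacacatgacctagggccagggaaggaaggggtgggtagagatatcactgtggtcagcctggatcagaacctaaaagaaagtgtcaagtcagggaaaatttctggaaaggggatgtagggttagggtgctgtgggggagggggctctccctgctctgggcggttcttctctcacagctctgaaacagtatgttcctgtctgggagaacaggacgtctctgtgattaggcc
Pf4: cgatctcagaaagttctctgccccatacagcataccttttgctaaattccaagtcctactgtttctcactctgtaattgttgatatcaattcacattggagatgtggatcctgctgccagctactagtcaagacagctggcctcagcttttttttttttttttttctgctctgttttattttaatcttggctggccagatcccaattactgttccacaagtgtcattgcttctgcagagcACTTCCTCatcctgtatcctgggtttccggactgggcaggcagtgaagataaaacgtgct
F13a1: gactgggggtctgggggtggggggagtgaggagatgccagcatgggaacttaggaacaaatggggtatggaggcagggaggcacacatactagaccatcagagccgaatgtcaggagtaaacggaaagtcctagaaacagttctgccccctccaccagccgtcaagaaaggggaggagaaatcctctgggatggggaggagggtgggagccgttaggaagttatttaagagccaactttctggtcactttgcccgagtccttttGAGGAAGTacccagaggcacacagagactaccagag
Counted from the annotated start, the first base of the motif is at -195 in C1qc, at -10 in Pf4, at -2 in Ctss, where the motif spans the start, and 14 bases after it in F13a1. Ctss, a cathepsin active at neutral pH, had 1053 and 740 RPKM in TRAP and 20.6 and 7.40 in tissue. F13a1, a transglutaminase chain, had 30.4 and 15.9 against 0.415 and 0.446.

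Clearance receptors and opsonins, which bind dying cells and debris, changed in both directions. Of 28 listed genes 26 were tested, 14 rose and 2 fell, with a median of 1.23. Without tissue replicate 2 the number that rose was 9. Havcr2, a phosphatidylserine receptor, had 109 and 89.2 RPKM in TRAP and 1.12 and 0.513 in tissue (5.80 ± 0.22, limma adjusted p = 1.32e-05). Mertk, the receptor kinase for apoptotic cells, had 29.8 and 29.3 against 4.78 and 7.27 (2.15 ± 0.22), and its bridging ligands Pros1 and Gas6 rose by 2.54 and 1.09. Axl, its relative, had 18.7 and 11.6 RPKM against 2.90 and 3.64. Itgb5, a partner in the integrin that binds milk fat globule protein, rose by 3.53, the scavenger receptor Msr1 by 3.39 and Timd4 by 2.36. Megf10, an engulfment receptor of astrocytes, and the engulfment adaptor Gulp1 fell by 0.97 and 0.84 on the log2 scale. Neither did without TRAP replicate 1 or tissue replicate 1, and 1 did without tissue replicate 2. Lrp1, the lipoprotein receptor, had 8.31 and 13.7 RPKM in TRAP and 12.0 and 8.85 in tissue, and the groups overlapped.

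Of 25 lysosomal genes 24 were tested, 20 rose and 1 fell, with a median of 1.82, and 13 rose without tissue replicate 2. Ctsd, an aspartic protease, had 910 and 646 RPKM in TRAP and 53.0 and 48.3 in tissue (3.90 ± 0.22). Cd68, a macrophage lysosomal membrane protein, had 198 and 148 against 4.35 and 1.16. Lamp1 and Psap, which most cells use, rose least: Lamp1 had 142 and 128 RPKM against 86.0 and 80.5 (0.69), and Psap 149 and 151 against 95.9 and 87.9 (0.70). Ctsf fell by 1.06 on the log2 scale, but not without TRAP replicate 1 or either tissue library. Tfeb, a regulator of lysosomal genes, was not called (0.76 ± 0.28, adjusted p = 0.0816).

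Disease-associated microglia genes, those that microglia raise around plaques and in ageing, rose for 11 of 20, with 19 tested and 1 lower (median 1.67). Cd52 had 85.8 and 51.0 RPKM in TRAP and 1.49 and 0.397 in tissue. Apoe, the lipid carrier that astrocytes also make, had 181 and 157 against 59.2 and 45.9 (1.67 ± 0.20, limma adjusted p = 0.000813). Spp1 fell, with 3.98 and 5.57 RPKM in TRAP and 12.0 and 11.7 in tissue, but not without TRAP replicate 1 or either tissue library. The integrin Itgax had 0.548 and 1.03 RPKM in TRAP, and Gpnmb, which was under the filter, 0.551 and 0.0747. Without tissue replicate 2 the count that rose was 6. Of 12 genes listed for purinergic and nucleotide signalling 9 were tested and 5 rose. They were the nucleotide receptors P2ry6 and P2rx7 (4.81 and 2.85) and Entpd1, which splits ATP (4.38). Listed with them, though not nucleotide receptors, were the oxysterol receptor Gpr183 (3.28) and the potassium channel Kcnk13 (1.13).

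Receptors for cytokines and microbial products let microglia read the state of the tissue. Of 21 cytokine and TGF-beta receptors 18 rose (median 2.53), among them Tgfbr1, with 65.0 and 56.7 RPKM in TRAP and 3.17 and 1.98 in tissue, Tgfbr2 (3.50) and the interleukin receptor Il6ra (4.16). Pattern recognition genes rose for 20 of 24, with 22 tested (median 2.79), such as Tlr7 (4.68), Tlr13 (3.94), Cd180 (5.08) and the inflammasome adaptor Pycard (4.48). Of 24 cytokines and chemokines 22 were tested and 11 rose (median 1.20). Ccl12 had 136 and 73.8 RPKM in TRAP and 2.60 and 0.188 in tissue, Ccl3 59.4 and 31.8 against 1.54 and 0.0658, and Tgfb1 12.5 and 20.3 against 0.666 and 0.204. Il10 was listed at 0 in both TRAP libraries. Immediate early genes, which cell handling can raise, were listed with heat shock genes and are counted together with them here. These genes changed in the same libraries: Atf3 had 12.4 and 5.80 RPKM in TRAP and 0.898 and 0.788 in tissue. Of the 20 listed genes 6 rose and 2 fell, with 18 tested. Their part in the cytokine values was not tested. Without tissue replicate 2 the number of immediate early genes that rose was 2, and without replicate 1 it was 3. Of those that fell, 1 remained in the count without either TRAP library or without tissue replicate 1.

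All 8 tested MHC class I genes of 11 listed rose (median 1.82), and 5 did without tissue replicate 2. B2m, the light chain of class I, had 4575 and 3081 RPKM in TRAP and 179 and 73.7 in tissue, and the heavy chain H2-K1 had 38.0 and 48.7 against 7.43 and 3.58. Interferon-response genes rose for 5 of 19, with 17 tested (median 0.90). Ifitm3, an antiviral membrane protein, had 289 and 184 RPKM against 34.5 and 13.9, and its call was lost without tissue replicate 2. The tissue libraries themselves differed in this list, with a mean log2 level of 2.66 in replicate 1 and 1.22 in replicate 2, against 3.48 and 2.87 in TRAP. Ifit3 had 15.0 and 1.95 RPKM in tissue and 4.39 and 4.08 in TRAP, and Usp18 had 4.09 and 0.143 against 1.15 and 2.42, so the groups overlapped. Without tissue replicate 1, the library with the higher level, 7 genes rose, and without replicate 2, 3 did.

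**Figure D2:**
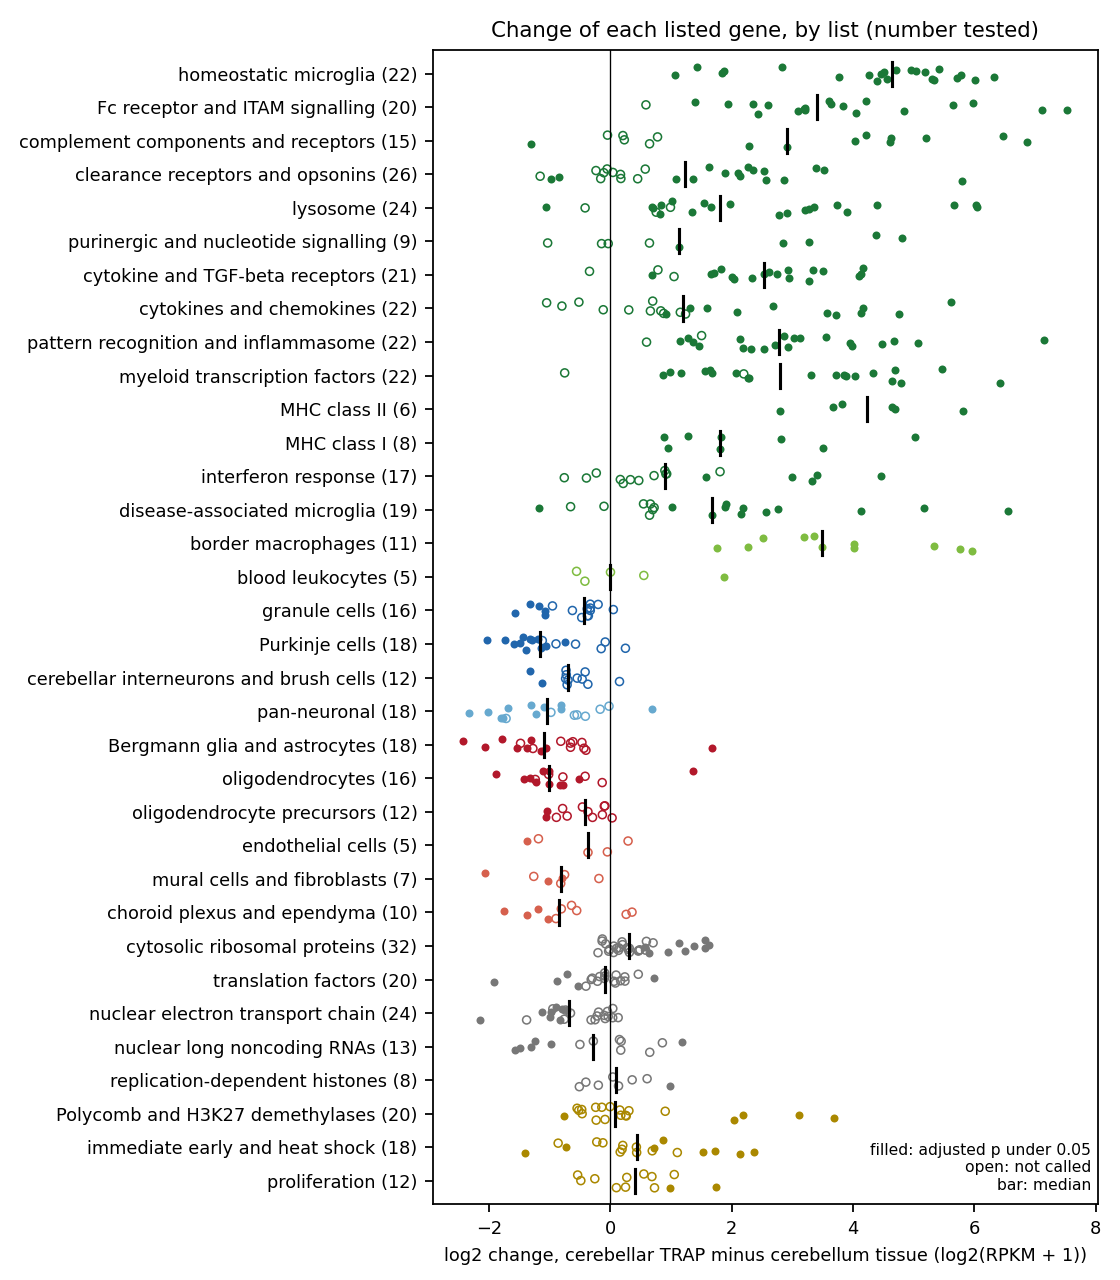
Log2 change (x axis, TRAP minus tissue, on log2(RPKM + 1)) of each tested gene in the gene lists (y axis, number tested in parentheses). Filled points passed limma's test, open points did not, and bars are medians, from 4.64 for homeostatic microglia to -1.16 for Purkinje cells.

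In the lists of other cerebellar cells more genes fell than rose, and many did not pass the test. For interneuron and brush cell genes and for oligodendrocyte precursor genes the share that fell was 16.7% each. This was near the 12.6% of all genes tested. Purkinje cells are the output neurons of the cerebellar cortex. Of 18 Purkinje genes 12 fell and none rose (median -1.16). Car8, a calcium-channel regulator of Purkinje cells, had 361 and 575 RPKM in TRAP and 942 and 952 in tissue. Calb1, their calcium buffer, had 72.7 and 90.0 against 237 and 255 (-1.59 ± 0.20, limma adjusted p = 0.00102), and the glutamate transporter Slc1a6 3.12 and 6.33 against 19.8 and 23.3 (-2.03). The call of Slc1a6 was lost under 2 of the 14 alternative settings, among them the one without tissue replicate 2. Rgs8, a signalling regulator, overlapped between the groups, with 233 and 319 RPKM in TRAP and 266 and 342 in tissue. Without tissue replicate 1 or 2 the number that fell was 4, and without TRAP replicate 1 it was 8.

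Granule cells, the most numerous neurons of the brain, had 16 listed genes, of which 5 fell and none rose (median -0.42). In 12 of the 16 both TRAP libraries lay below both tissue libraries, against 35.1% of all genes. Gabra6, a GABA receptor subunit of granule cells, had 96.3 and 140 RPKM in TRAP and 245 and 244 in tissue (-1.07 ± 0.25, adjusted p = 0.0169). Cbln3, Neurod1, Etv1 and Calb2 fell by 1.18, 1.33, 1.08 and 1.57 on the log2 scale. Fat2, a cadherin of granule cells, had 30.5 and 27.6 against 23.5 and 33.1, and the groups overlapped. The granule count was 2 without tissue replicate 1 and 1 without tissue replicate 2, and of the 5 genes only Etv1 kept its call under all 14 alternative settings. Interneuron and brush cell genes fell for 2 of 12, Lgi2 and Kit, with 0 and 1 without tissue replicate 1 and 2, and 5 without TRAP replicate 2. Pan-neuronal genes fell for 10 of 18 and rose for 1 (median -1.03), with 6 that fell without tissue replicate 1. The gene that rose, the neurofilament Nefl (0.69), did not pass without TRAP replicate 2 or either tissue library. Thy1, a neuronal surface protein, had 17.5 and 30.9 RPKM in TRAP and 148 and 99.2 in tissue (-2.33 ± 0.33), and Syt1, a synaptic calcium sensor, 12.5 and 11.9 against 41.7 and 48.5 (-1.80).

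Genes of Bergmann glia and astrocytes fell for 8 of 18 (median -1.10), and 1 rose, Apoe. Sparcl1, an astrocyte matrix protein, had the largest fall among the named protein-coding genes, with 38.7 and 29.8 RPKM in TRAP and 152 and 228 in tissue (-2.42 ± 0.29, limma adjusted p = 0.000725). S100b and the glutamate transporter Slc1a2 fell by 1.77 and 1.37 on the log2 scale. Without tissue replicate 2 the astrocyte count was 4. Oligodendrocyte genes fell for 10 of 16 (median -1.01), and 1 rose, the iron carrier Trf. Opalin, a myelin gene, had 0.151 and 0.142 RPKM in TRAP and 3.84 and 2.69 in tissue (-1.88 ± 0.25). Without either tissue library 3 oligodendrocyte genes fell, without TRAP replicate 2 it was 6, and Trf lost its call without either tissue library. Oligodendrocyte precursor genes fell for 2 of 12, Sox10 and Pdgfra, and neither did without a tissue library, while 1 did without TRAP replicate 1.

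Vessel and barrier genes differed in median level between the TRAP libraries. Of 12 endothelial genes 5 were tested and 1 fell, and of 13 mural and fibroblast genes 7 were tested and 3 fell. Of 10 choroid plexus and ependymal genes 4 fell. These shares of the genes tested were 20%, 42.9% and 40%, against 12.6% of all genes tested. Acta2, the smooth muscle actin, had 0.596 and 0.110 RPKM in TRAP and 5.01 and 4.15 in tissue (-2.06 ± 0.30). Otx2, a choroid plexus regulator, had 1.62 and 3.25 against 8.58 and 12.0, a call lost without tissue replicate 2. The median level of the choroid genes was 14.0% of tissue in TRAP replicate 1 and 69.2% in replicate 2, and that of mural and fibroblast genes 15.7% and 56.2%. Leaving out TRAP replicate 1, or either tissue library, left at most 2 choroid genes and 1 mural gene that fell. Without TRAP replicate 2, 5 mural and 3 endothelial genes fell. This difference between the TRAP libraries moved with the vessel and barrier calls, and its part in them was not tested.

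How much of the tissue level remained in TRAP was read from the members with a tissue mean of at least 1 RPKM, as a description with no test. The median member stood at 43.7% of its tissue level for Purkinje cells (18 genes), 70.9% for granule cells (16), 49.4% for pan-neuronal genes (18), 45.4% for astrocytes (18) and 48.4% for oligodendrocytes (16). The same measure in striatum was 27.9% for pan-neuronal genes (18), 18.8% for astrocytes (17) and 17.3% for oligodendrocytes (16). Each of these 3 shared lists thus kept a larger part of its tissue level in cerebellar than in striatal TRAP. Homeostatic microglia genes reached 5330% of tissue in cerebellum over 12 members and 4560% in striatum over 12, which need not be the same members. Over all 22 listed genes the order was the other way, with a median log2 change of 4.64 in cerebellum and 5.32 in striatum. Few blood cell genes passed the filter: 5 of 18 leukocyte and erythrocyte genes were tested and 1 rose (median 0.006). Their summed level was 29.2 and 11.7 RPKM in TRAP and 34.3 and 12.0 in tissue. The monocyte gene Ly6c2, the neutrophil gene Camp, the T cell gene Cd3e and the B cell gene Cd79a were listed at 0 in both TRAP libraries. Others of the list were not: the neutrophil gene S100a8 had 6.48 and 0 RPKM in TRAP and 0.544 and 1.24 in tissue. The erythrocyte gene Hbb-b1 had 15.2 and 6.29 against 25.9 and 6.80, and for both genes the groups overlapped. The gene that rose, Cd79b, a chain of the B cell receptor, had 2.42 and 3.07 RPKM in TRAP and 0.0271 and 0 in tissue.

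Several of the largest falls were in genes with low counts in TRAP. After Sparcl1 came Trac, the T cell receptor alpha constant region, at 0 and 0.135 RPKM in TRAP and 6.15 and 3.38 in tissue, and Ucma, listed at 0 in both TRAP libraries and 5.50 and 2.68 in tissue. Flywch2, Bex2, Cycs, Dner and Rab37 fell by 2.33, 2.18, 2.14, 2.13 and 2.13 on the log2 scale and kept their call under every alternative. Cycs, cytochrome c, had 18.1 and 9.07 RPKM in TRAP and 57.3 and 63.6 in tissue. Dner, a Notch ligand of Purkinje cells, had 13.3 and 20.5 against 71.9 and 79.6. The falls of Dao, Apbb1, Cox7a1, Abhd3, Bex4 and Pcbd1 (-2.24 to -2.10) each lost their call without either tissue library. The calls of Trac, Opalin, Acta2, Apoe and Atf3 were lost when TRAP libraries of 3 and 6 months entered the group.

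Classes of RNA differed in their change from tissue to TRAP. The cells sampled differ too, so ribosome binding and cell type cannot be told apart here. Rpl10a, whose tagged form is the handle of the capture, had 127 and 94.1 RPKM in TRAP and 75.6 and 58.6 in tissue (0.71 ± 0.23, limma adjusted p = 0.0509), which did not pass the test. Eef1a1, the locus that drives it, had 238 and 238 against 271 and 110 (0.46 ± 0.47). Of 32 cytosolic ribosomal protein genes 9 rose and none fell (median 0.32), with 5 to 10 when 1 library was left out and the 5 without tissue replicate 2. Rpl37 had 304 and 240 RPKM against 110 and 96.0, while Rpl3 had 193 and 165 against 189 and 171. Among 20 translation factors 4 fell (20%) and 1 rose (5%), against 12.6% and 14.9% of all genes tested. The one that rose, Eif4a1, did not pass without either tissue library. Of 24 nuclear genes of the electron transport chain 8 fell and none rose (median -0.68). Cox5a had 43.5 and 40.8 RPKM in TRAP and 101 and 84.3 in tissue. Without tissue replicate 1 or 2, 4 or 5 of the electron transport genes fell, and 1 translation factor did without TRAP replicate 1 or without either tissue library.

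RNAs that stay in the nucleus fell more often than they rose, and most tested were not called. Of 16 nuclear long noncoding RNAs 13 were tested, 5 fell and 1 rose. Without either tissue library 3 fell, and the one that rose, Pvt1, did not pass without TRAP replicate 1 or either tissue library. Malat1, held in nuclear speckles, had 1748 and 1351 RPKM in TRAP and 3457 and 3825 in tissue (-1.24 ± 0.33, limma adjusted p = 0.0266), a call lost without either tissue library. Meg3 and Snhg11 fell by 1.57 and 1.30 on the log2 scale. Of 2849 genes of small nuclear and nucleolar RNA 164 were tested, 48 fell and 5 rose (median -0.92). A SNORA67 copy was listed at 0 in both TRAP libraries and had 18.5 and 15.4 RPKM in tissue. A U6 copy was listed at 0 and had 7.60 and 7.38, and snoU109 had 0.342 and 0.759 against 17.5 and 21.0. The median small RNA stood at 2.93% of its tissue level, over 107 genes with a tissue mean of at least 1 RPKM. Members were taken by their tissue level, which favours a low share in TRAP. A U1 copy went the other way, with 7.86 and 5.48 RPKM in TRAP and 0.137 and 0 in tissue. Of 14 replication-dependent histone genes, whose messages lack a poly(A) tail, 8 were tested and 1 rose, Hist2h2ac (0.98). That share, 12.5%, was near the 14.9% of all genes tested, and Hist2h2ac did not pass without either tissue library. Small RNA genes are short and have near-identical copies, between which reads may be split. Without tissue replicate 2 the number that fell was 27 and without replicate 1 it was 32. The number that rose was 8 without either TRAP library and 2 without either tissue library.

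Polycomb proteins write and read a repressive methyl mark on histone H3. Of 22 listed genes 20 were tested, 4 rose and 1 fell (median 0.08), or 20% and 5% of those tested. Of all genes tested 14.9% rose and 12.6% fell. All 4 that rose kept their call under every alternative. The demethylase of the mark Kdm6b had 102 and 116 RPKM in TRAP and 10.4 and 5.33 in tissue (3.69 ± 0.44), its relative Kdm6a 84.1 and 85.8 against 17.7 and 22.3 (2.04), Cbx2, a reader of the mark, 12.4 and 15.0 against 0.655 and 0.746 (3.11), and Jarid2, a cofactor of the writer, 74.0 and 67.3 against 14.1 and 15.4 (2.19). Rbbp7, a histone-binding subunit, fell by 0.77 on the log2 scale, but not without tissue replicate 2. The core of the writer was not called: Eed had 24.1 and 18.9 RPKM in TRAP and 9.12 and 13.0 in tissue (0.91 ± 0.29, limma adjusted p = 0.0529), Suz12 39.4 and 37.0 against 30.2 and 33.5, and Ezh2 6.93 and 4.82 against 6.55 and 6.38. Both Eed values in TRAP lay above both in tissue. The share of tested proliferation genes that rose, 16.7%, was near the 14.9% of all genes tested. Of 17 proliferation genes 12 were tested and 2 rose, Mki67 (1.07 and 1.20 RPKM against 0.0519 and 0.117) and Rrm2, neither of them without a tissue library.

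To set these changes beside those of another region, the log2 change was compared with that of striatal TRAP against striatum tissue at 9 months, from mice of the same genotype and age, in the same fit. The difference passed the test for 575 of 14186 genes (limma, adjusted p under 0.05), or 4.05%: 331 higher in cerebellum (2.33%) and 244 lower (1.72%). These calls rest on few libraries. Without cerebellum tissue replicate 1 or 2, striatal TRAP replicate 1, or striatum tissue replicate 1 or 2 no gene passed, while 2297 to 3112 had an unadjusted p under 0.05. Without striatal TRAP replicate 2, 14 passed, and without cerebellar TRAP replicate 1 or 2, 1763 or 1490. With each library shifted to a common median, 267 were higher and 317 lower. With the replicate number as a block, within region or within library type, no gene passed either (3137 and 4116 at an unadjusted p under 0.05). The microglial groups rose in both regions: homeostatic genes had a median of 5.32 in striatum and 4.64 in cerebellum, myeloid transcription factors 3.57 and 2.80, and lysosomal genes 2.30 and 1.82. Of the 22 homeostatic genes 4 rose less in cerebellum: Golm1, Sparc, Upk1b and Slc2a5, with differences of -2.68, -2.29, -1.98 and -1.71. Of the 16 oligodendrocyte genes 3 had a higher change in cerebellum, among them Cldn11 and Mal, by 2.38 and 2.28.

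**Figure D3:**
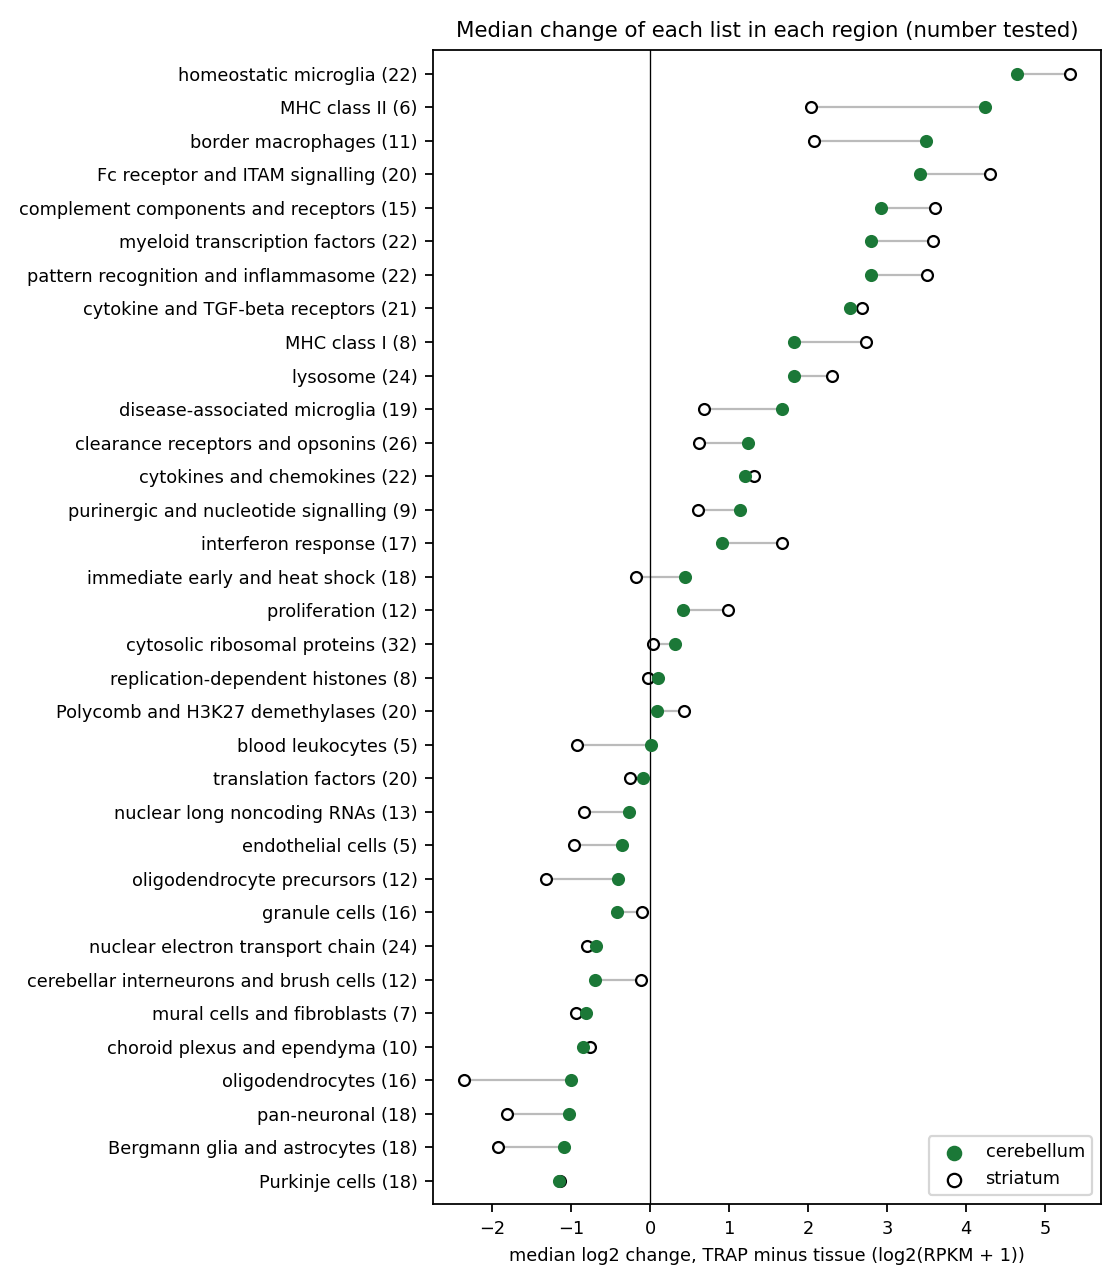
Median log2 change (x axis, TRAP minus tissue) of the tested genes of each list in cerebellum (green) and striatum (open), lists ordered by the cerebellar median with the number tested in parentheses. MHC class II and border macrophage genes have medians of 4.23 and 3.49 in cerebellum and 2.03 and 2.07 in striatum, while homeostatic genes are higher in striatum.

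MHC class II molecules present antigen to T cells. All 6 tested class II genes of 7 listed rose in cerebellar TRAP (median 4.23), and 6 did when any of the 4 cerebellar libraries was left out, but the filter on low values could be passed through TRAP alone. Cd74, the invariant chain, had 158 and 261 RPKM in TRAP and 4.18 and 1.56 in tissue (5.81 ± 0.58, limma adjusted p = 0.000314). H2-Aa, a class II alpha chain, had 39.3 and 59.2 against 1.50 and 0.440 in cerebellum, and 0.768 and 1.24 against 1.04 and 0.0703 in striatum. It rose with the invariant chain in cerebellum, and its striatal groups overlapped. The difference between regions was 4.27 for H2-Aa, 3.90 for H2-Eb1 and 2.34 for H2-DMa (adjusted p = 0.0240, 0.0222 and 0.0330), and 2.68 for Cd74 (adjusted p = 0.0997), so 3 of 6 passed. Ciita, the master regulator of the class, was under the filter at 0.0818 and 0.480 RPKM in TRAP.

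Border macrophages line the meninges and vessels of the brain and express Cx3cr1 to differing extents. All 11 tested genes of the 12 on their list rose in cerebellar TRAP (median 3.49), but the filter on low values could be passed through TRAP alone. Lyve1, Pf4, Mrc1 and Cd163, given below, were each under 1 RPKM in both cerebellum tissue libraries. Lyve1, a hyaluronan receptor, had 79.1 and 48.6 RPKM in TRAP and 0.349 and 0.825 in tissue (5.33 ± 0.37, limma adjusted p = 6.08e-05). Pf4, a chemokine of these cells, had 120 and 94.2 against 0.992 and 0.975, and Mrc1, the mannose receptor, 31.8 and 20.9 against 0.554 and 0.749. Cd163, a haemoglobin scavenger receptor, had 16.0 and 7.90 against 0.349 and 0.352 in cerebellum, and 2.63 and 1.45 against 2.86 and 2.94 in striatum. Cd163 thus rose in cerebellum and was no higher in TRAP than in tissue in striatum. Of the 11 genes 4 differed between regions: Cd163 by 3.58, Lyve1 by 2.98, Pf4 by 2.91 and Siglec1 by 1.74 (adjusted p = 0.0244, 0.0314, 0.0160 and 0.0333). Vsig4, a complement receptor of tissue macrophages, and Timd4, a phosphatidylserine receptor, went with them, with differences of 3.46 and 2.01. Mean log2 levels of the list were 4.66 and 3.93 in cerebellar TRAP, 0.50 and 0.52 in tissue, and 2.48 and 1.90 in striatal TRAP. Both border macrophage and class II genes thus rose over tissue, and 4 of 11 and 3 of 6 rose more than in striatum. Between the cerebellar TRAP replicates of 9 months the means of the lists went opposite ways. Class II genes had mean log2 levels of 4.96 and 5.48 there, against 4.66 and 3.93 for border macrophage genes. H2-DMa of class II did not follow its list mean, with 78.5 and 41.5 RPKM. At 3 and 6 months both list means were lower in replicate 2 than in replicate 1. The part of border macrophages in the class II values was not tested.

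Cerebellar control TRAP libraries of 3 and 6 months share the tissue libraries of this comparison and are given as levels only. Border macrophage genes had mean log2 levels of 4.34 and 3.99 at 3 months and 3.98 and 1.00 at 6 months. Replicate 2 of 6 months stood apart: Lyve1 was at 0.123 RPKM there and at 44.0 in replicate 1, and Pf4 at 4.49 and 172. Class II genes had levels of 5.09 and 4.64 at 3 months and 5.76 and 4.30 at 6 months, and H2-Aa was 14.7 RPKM in the library with low Lyve1, against 0.768 and 1.24 in striatal TRAP of 9 months. No striatal TRAP of 3 or 6 months was compared. Homeostatic genes lay between 5.31 and 6.02 in the 6 cerebellar libraries, lowest in that same library, and at 7.42 and 7.58 in striatal TRAP of 9 months.

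**Figure D4:**
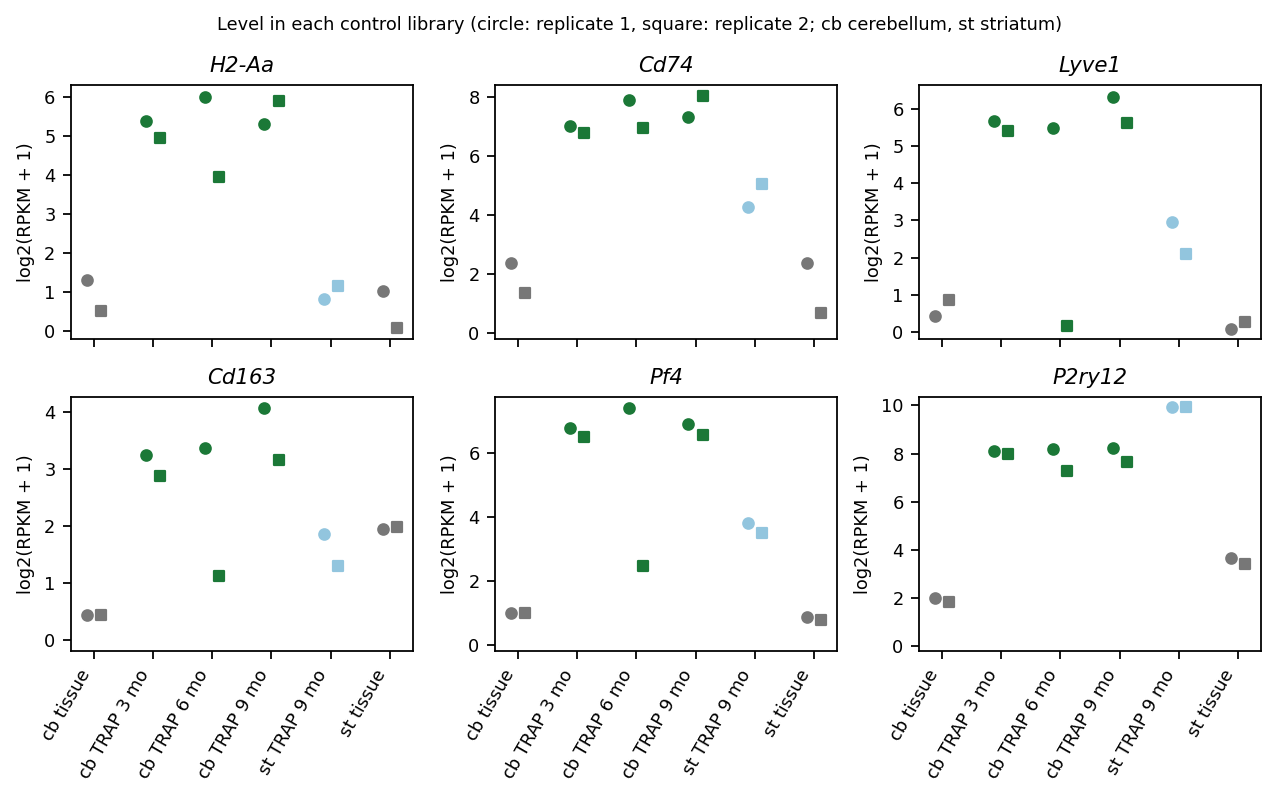
Level (y axis, log2(RPKM + 1)) of 6 genes in each control library, by group on the x axis (circle, replicate 1; square, replicate 2; cb cerebellum, st striatum). H2-Aa and Cd74 of class II lie above tissue in all cerebellar TRAP libraries, with H2-Aa lowest in replicate 2 of 6 months. Lyve1, Cd163 and Pf4 are low in that replicate, and P2ry12 is highest in striatal TRAP.

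Other genes with a larger change in cerebellum were of mixed kind. Apln, the ligand of the apelin receptor, had 22.4 and 20.3 RPKM in cerebellar TRAP against 4.12 and 4.21 in tissue, and 2.05 and 0.316 against 5.21 and 6.41 in striatum, so TRAP lay above tissue in cerebellum and below it in striatum (difference 3.87, limma adjusted p = 0.0234). Ccnjl, a cyclin-like gene, had 51.9 and 41.5 against 2.95 and 2.35 in cerebellum and 0.884 and 1.57 against 0.907 and 0.870 in striatum (3.48, adjusted p = 0.0154). Zfp960 and Ifitm6 differed by 3.45 and 3.37. Rxrg differed by 3.48, but its cerebellar change was not called, and it had 29.7 and 35.3 RPKM in striatum tissue, against 3.42 and 3.54 in striatal TRAP, so the largest of its values were in that tissue.

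All 10 named genes with a smaller change in cerebellum had higher levels in both cerebellum tissue libraries than in both of striatum. Stk17b, a kinase, had 53.3 and 74.6 RPKM in cerebellar TRAP and 49.7 and 41.3 in striatal TRAP, but 48.2 and 66.6 in cerebellum tissue and 4.25 and 3.22 in striatum tissue (difference -3.15, limma adjusted p = 0.0160). Il16, Inpp4b and Fam107b had cerebellar changes of 0.26, 0.06 and -0.72 and striatal changes of 3.21, 2.93 and 2.07. Inpp4b had 7.21 and 6.13 RPKM in cerebellar and 17.5 and 18.0 in striatal TRAP, and Fam107b 73.9 and 52.4 against 23.3 and 20.4. Ebf3, a transcription factor, had 28.9 and 24.1 RPKM in cerebellar TRAP, 11.4 and 9.52 in its tissue, 43.2 and 40.2 in striatal TRAP and 0.553 and 0.396 in striatum tissue (difference -3.60, adjusted p = 0.0109). Maf, a macrophage transcription factor, was both lower in cerebellar TRAP (44.8 and 31.8 against 95.7 and 98.5) and higher in cerebellum tissue (6.48 and 7.53 against 1.58 and 1.15), with a difference of -3.10 (adjusted p = 0.0150). Cdr1, Gcnt1, Sla and Stk10 differed by -3.09, -2.96, -2.79 and -2.71. All 20 genes named for the difference lost their call under at least 1 alternative setting, and 0 changed sign.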

How the data were processed

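Values are RPKM that the authors deposited in a single table of 37810 genes with values, 28 of the 97 samples; the other 69 were not analysed here. Per the submitters' processing notes, reads went through bcl2fastq, TopHat2 2.1.0, HTSeq 0.6.0 and DESeq2 on build mm9; the roles, the RPKM formula and whether counting used strand are not given in the sources used here, so overlapping and antisense genes cannot be told apart. RPKM steps gave whole reads for all 32861 genes above 0 (100.0%, within 0.0001), from which depth was taken. Genes that reached 1 RPKM in 2 or more of 8 libraries (control TRAP and tissue of cerebellum and striatum at 9 months, 2 each) were tested on log2(RPKM + 1) in limma 3.58.1 (R 4.3.3), with 1 mean per group, a trend of variance with level, 4 residual degrees of freedom and Benjamini-Hochberg adjustment over 14186 genes; the code was tested on simulated data. Named genes were the 15 largest changes each way, 10 differences between regions each way, and up to 7 genes per list by adjusted p. Other list members were named for their role after their values were seen; some members are not reported here by name. Groups, gene lists and tests were chosen with earlier results of these data known. Alternatives covered the pseudocount, filter, samples in the fit, scaling, variance trend, voom on recovered reads, replicate blocks and each library left out.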

Additional observations from a re-analysis of the deposited data

Results flagged for a closer look

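The change from tissue to TRAP differed between cerebellum and striatum, by limma's test of the difference itself, for 575 of 14186 genes. Predicted, clone-named, small RNA, ribosomal protein and Y-linked genes, and genes low in all groups, were left out of the rankings below. Among the rest, the 10 largest differences in the direction of cerebellum were 4.27 for H2-Aa, 3.90 for H2-Eb1, 3.87 for Apln, 3.58 for Cd163, 3.48 for Ccnjl, 3.48 for Rxrg, 3.46 for Vsig4, 3.45 for Zfp960, 3.37 for Ifitm6 and 2.98 for Lyve1. The 10 largest in the direction of striatum were -3.60 for Ebf3, -3.15 for Stk17b, -3.10 for Maf, -3.09 for Cdr1, -2.96 for Gcnt1, -2.95 for Il16, -2.87 for Inpp4b, -2.79 for Sla, -2.79 for Fam107b and -2.71 for Stk10. Of the cerebellar group, Zfp960, a zinc finger gene, had 15.6 and 54.2 RPKM in TRAP and 0.662 and 0.337 in tissue, and Ifitm6, a relative of an antiviral membrane protein, 10.5 and 9.90 against 0.394 and 0.0311. Of the striatal group, Cdr1 had 2794 and 2219 RPKM in cerebellar TRAP and 5066 and 6187 in its tissue, against 2054 and 3819 in striatal TRAP and 730 and 744 in striatum tissue. The striatal groups of Cdr1 did not overlap, nor did the cerebellar ones, and they lay in opposite order.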

How the results depend on the processing

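Of 188 named genes called between cerebellar TRAP and tissue, 124 kept their call and sign under all 14 alternatives, 64 lost it under at least 1 and 0 changed sign. The settings named above for a lost call are not always the full set for that gene. With the 4 cerebellar libraries alone, 1344 genes were higher and 927 lower (2271 in all). With TRAP of 3, 6 and 9 months as the group, 1090 were lower. Leaving out 1 library gave 1123 to 2622 higher, 571 to 2462 lower and 1708 to 5084 in all. Voom on recovered reads called 4428. The cause of these shifts was not tested.

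The difference between regions moved more. A pseudocount of 0.1 gave 177 higher and 151 lower (328), and all 28 libraries in the fit gave 553 and 378 (931). Leaving out 1 library gave 0 to 1027 higher, 0 to 736 lower and 0 to 1763 in all. The replicate numbers are shared between groups, and the 9-month control TRAP columns also carry a shared number across regions, but the labels do not say that they pair samples. Deviations of same-numbered libraries correlated by 0.5698 between cerebellum and striatum tissue, 0.0589 between cerebellar and striatal TRAP, 0.0158 between cerebellar TRAP and tissue, and -0.0165 between striatal TRAP and tissue. With the replicate number as a block within region or within library type, the difference passed for 0 genes, and cerebellar TRAP against tissue gave 3337 or 3181 calls. Voom called 639 differences.

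Among genes not called, Sdhb (0.04) was -0.78 without TRAP replicate 1 and 0.87 without replicate 2, and Hist1h1b (0.14) was 1.62 and -1.34. The design has 2 libraries a group, and TRAP replicate 1 had fewer reads than replicate 2, so low genes are less certain there.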

Other observations

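Ighm, the heavy chain constant gene of IgM, had 622 and 365 RPKM in cerebellar TRAP, 6.86 and 3.26 in tissue, and 843 and 911 in striatal TRAP. The B cell gene Cd79a was listed at 0 in both cerebellar TRAP libraries, while Cd79b had 2.42 and 3.07 RPKM.

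Levels of Bahcc1 are given by age and region without a test between them. It had 290 and 260 RPKM in cerebellar TRAP of 3 months, 815 and 895 at 6 months, and 445 and 759 at 9 months, against 58.3 and 227 in striatal TRAP. Its relative Tnrc18 had 143 and 116, 365 and 350, and 223 and 298 RPKM at these ages, and 56.2 and 138 in striatal TRAP. The difference in change between cerebellum and striatum did not pass limma's test for Bahcc1 (1.93, adjusted p = 0.176) or Tnrc18 (1.61, adjusted p = 0.113). For both genes the 6-month libraries were the highest and the 3-month libraries the lowest of the cerebellar ages.

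Predicted genes stood outside the naming rule, and 3 of them with large rises were chosen here after their values were seen. Gm15662 had 1668 and 464 RPKM in TRAP and 0.122 and 0.317 in tissue, the largest log2 change of all genes tested (9.50). Gm11428 had 525 and 278 RPKM against 1.02 and 0.915. Gm12563, whose gene model spans 102 bases, had 5989 and 1852 RPKM against 31.5 and 7.42.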
